A study of Mus musculus with 12 samples.

Results

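Mouse bone marrow stromal cells taken from the marrow of tumour-bearing mice (BM, 3 libraries) were compared with the same kind of cell kept in primary culture (NC, 3 libraries). These 6 of the 12 RNA-seq libraries of the series were chosen by their titles, and no measured value was used to choose them. Expected counts and FPKM were summed over the transcripts of each gene, and every gene was placed by its mean level in culture: at least 1 FPKM, or under 1 FPKM. FPKM scales the fragments of a transcript to its length and to all mapped fragments of the library, so that levels of genes of different length can be set side by side.

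All cells came from C57BL/6 mice, are labelled wild type and carried green fluorescent protein (GFP). NC cells were primary cultures. For BM, mice received GFP cells alongside Lewis lung carcinoma cells, which are mouse tumour cells of lung origin that here carried a red fluorescent protein, and GFP cells were later sorted out of the marrow. A further pair of groups is used for reference: HOMING, which are marrow GFP cells after a subcutaneous dose of GFP cells without tumour cells, and TUMOR, which are GFP cells from the site of the joint injection. The labels give no age, no time after injection, no gate or purity of the sort, and do not say whether the 3 libraries of a group come from separate mice or cultures. The p-values therefore measure the spread between these libraries, which may be technical, and culture, the passage through a mouse and the tumour all differ between BM and NC and cannot be told apart.

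Stromal cells of the marrow are fibroblast-like cells that support blood formation, build matrix and can give rise to bone, fat and cartilage. In culture they adhere, spread and often take on contractile features. They also respond to inflammatory signals through NF-kB, a family of transcription factors held inactive by inhibitor proteins, with the release of chemokines that draw neutrophils and monocytes and of enzymes that make nitric oxide and prostaglandins.

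Library totals were 44873190 to 45052938 expected counts in BM and 45701667 to 46166519 in NC, so depth differed little between the groups. The 3 BM libraries were closely alike, with Pearson's r of 0.998 to 0.999 on log2(FPKM + 1) across tested genes, which are not independent replicates. NC libraries gave 0.992 to 0.997 among themselves, and BM with NC gave 0.964 to 0.968. Of 18 genes that mark stromal cells, 14 were tested, and Vim, an intermediate filament protein, stood at 866 FPKM in BM and 1273 FPKM in NC. The pan-leukocyte gene Ptprc (CD45) had 2 counts in NC and 212 in BM over 3 libraries each. The GFP mark itself was not analysed here.

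Of 12314 tested genes, 1416 (11.5%) were called, which means an adjusted p under 0.05 in edgeR's quasi-likelihood test and a change of at least 2-fold. In BM 977 (7.93%) were higher and 439 (3.57%) lower, so 69.0% of the calls were rises. The share ran from 51.7 to 74.6% over the alternative settings. The split by level in culture changed this picture. Among 11061 genes of at least 1 FPKM in NC, 742 (6.71%) were called, 337 higher and 405 lower. Among 1253 genes under 1 FPKM in NC, 674 (53.8%) were called, 640 higher and 34 lower. The latter genes entered the test only by reaching 1 FPKM in 3 or more of the 12 libraries, at least 1 of them outside NC, so rises had to be frequent among them and their count is a description. With limma on log2(FPKM + 1) the changes of these genes described below were under 2-fold: Acan, Axin2, Bmp4, C5ar1, Cdkn2a, Cnn1, Ctsg, Elane, Gp9, Gpx4, H2-Aa, H2-Ab1, Hba-a1, Hba-a2, Hbb-bs, Hgf, Hmgcs1, Hoxd3, Hoxd4, Itgal, Itgb3, Mpo, Peg3, Pparg, Psmb8, Ptprc, Ptx3, Snrpn, Sox5, Tap2, Tcf7, Timp2, Tpm2, Wnt4 and Wnt7b. The added 1 shrinks changes of low genes. Gpx4, Ptx3, Timp2, Cdkn2a and Tpm2 are abundant and were also under 2-fold with scaling by library size. The rises were 45.4% of the calls above 1 FPKM and 95.0% below it. The first of these shares moved across 50% with the setting. Falls outnumbered rises with TMM scaling and with RLE scaling (334 higher and 409 lower). Rises outnumbered falls with library size alone (412 and 344), with limma, which differs in test and input as well, on log2(FPKM + 0.1) (411 and 316) and log2(FPKM + 1) (265 and 177), with the boundary at 0.5 FPKM (435 and 430), and when genes were placed by the mean of the 6 libraries (519 and 367). In bulk RNA, a change in the number of cells of a type and a change in RNA per cell cannot be told apart. Genes next to the boundary were Pfkfb1 and Aldh4a1, both at 0.997 FPKM, and Niban3 and Dennd2c, both at 1.00 FPKM.

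**Figure D1:**
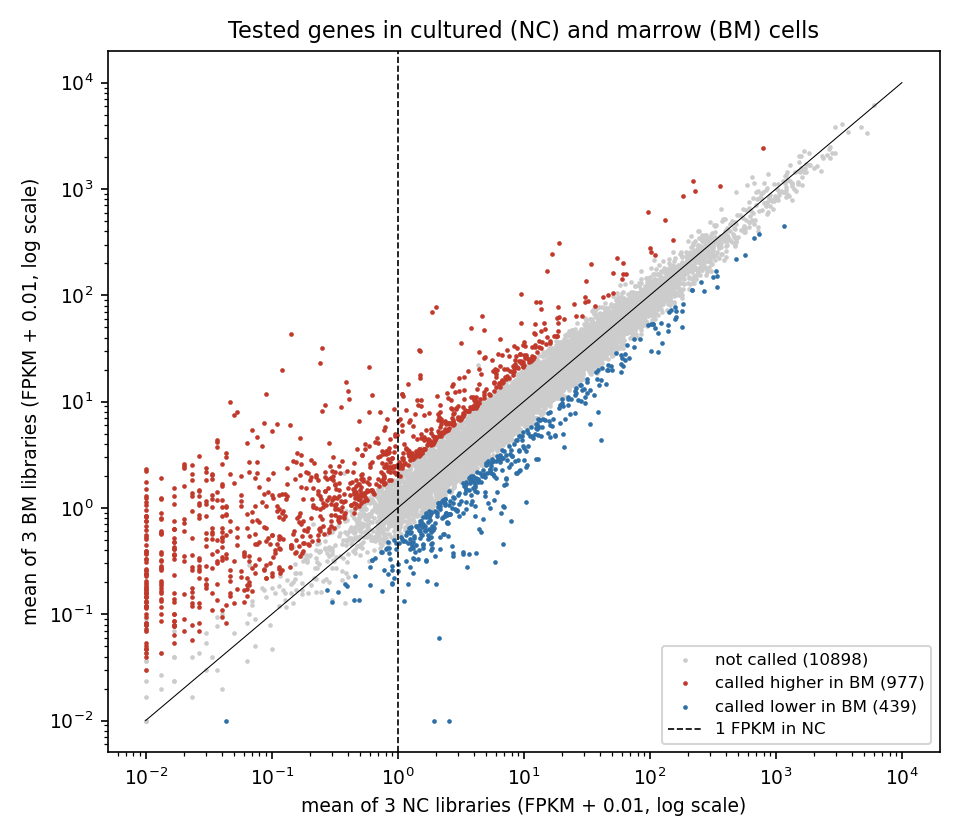
Mean level of each tested gene in the 3 NC libraries (horizontal axis) and in the 3 BM libraries (vertical axis), both as FPKM + 0.01 on log scales, with the diagonal of equal levels and a dashed line at 1 FPKM in NC. Of the 977 genes called higher 640 lie to the left of the dashed line, and of the 439 called lower 405 lie to its right.

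Large changes were mostly rises from a low level. At least 4-fold rises numbered 492 against 75 falls, but among genes of at least 1 FPKM in NC they numbered 59 against 68, and at least 8-fold changes there numbered 18 against 16. Among the genes under 1 FPKM, 433 of the 640 rises were at least 4-fold on the fitted scale, 308 ended at a mean of at least 1 FPKM in BM, and 71 had 0 counts in all 3 NC libraries. For genes with 1 to 3 NC counts the fitted change depends on the library that holds those counts, so the ratio of counts is given with its interval. With no minimum fold change, 8198 genes had an adjusted p under 0.05 (4238 higher, 3960 lower), and the median log2 change over all tested genes was 0.02.

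Many chemokines and cytokines that act on myeloid cells were higher in BM. All 19 members of that list were tested, 13 were higher in BM and 1, Ccl5, was lower (log2 -1.30 ± 0.10), and the list median was 1.78. Of the 12 with at least 1 FPKM in NC, 6 were higher, against 3.05% of all such genes, and their median was 0.85. The 7 under 1 FPKM in NC were all higher, beside 51.1% of all such genes. Genes under 1 FPKM entered the test only through groups where they are high. The highest levels were those of Ccl2 (Entrez 20296), the main monocyte chemoattractant. Its FPKM was 837, 800.4 and 746 in NC and 2287, 2408 and 2541 in BM, a log2 change of 1.51 ± 0.08 (SE; adjusted p 1.97e-08 by edgeR). Every BM library was above every NC library. Of the 742 called genes of at least 1 FPKM in NC, 738 had no overlap between the groups. The gene was not called against HOMING (mean 1249, log2 0.97 ± 0.08) and was called against TUMOR (401, log2 2.61), comparisons in which 10.4% and 14.2% of all tested genes were called. Neutrophil markers other than Lcn2 also stood higher, at a summed 56.6 to 64.8 FPKM in BM and 1.56 to 2.88 in NC, and their part in the chemokine, NF-kB and suppressive mediator results was not tested.

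Ligands of the neutrophil receptor CXCR2 were among these rises. Cxcl1 (Entrez 14825) went from 191, 181 and 292 FPKM in NC to 1142, 1160 and 1272 in BM (log2 2.35 ± 0.15). Cxcl5 (Entrez 20311) went from 190.5, 158 and 204 to 873, 795 and 908 (log2 2.14 ± 0.12). Cxcl2 (Entrez 20310) had the largest rise of all genes of at least 1 FPKM in culture under the naming rule, from 1.53, 1.65 and 2.43 to 66.6, 69.7 and 72.3 FPKM (log2 5.13 ± 0.23). In none of these genes did a BM library overlap an NC library, which the naming rule required of Cxcl2. The group order differed between the ligands. Cxcl1 was higher in BM than in HOMING (log2 1.31) and TUMOR (3.39), whereas Cxcl2 was highest in HOMING (154 ± 35.5 FPKM, SD, n = 3) and lower in BM than there (log2 -1.11).

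The promoters of these chemokine genes are shown because 3 of the ligands carry the same letters in one stretch. Each sequence is the 250 bases before the gene start in RefSeq (build GRCm38.p6), 5′ to 3′ on the gene's own strand, and capitals mark matches to the kappa B consensus, the site that NF-kB proteins bind, on either strand.
Cxcl1, chr5:90890995-90891244, plus strand: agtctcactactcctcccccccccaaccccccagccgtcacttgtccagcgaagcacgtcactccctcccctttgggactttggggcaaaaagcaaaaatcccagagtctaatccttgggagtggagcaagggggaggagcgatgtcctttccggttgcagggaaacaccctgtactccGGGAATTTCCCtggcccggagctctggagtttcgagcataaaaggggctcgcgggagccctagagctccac
Cxcl2, chr5:90903649-90903898, plus strand: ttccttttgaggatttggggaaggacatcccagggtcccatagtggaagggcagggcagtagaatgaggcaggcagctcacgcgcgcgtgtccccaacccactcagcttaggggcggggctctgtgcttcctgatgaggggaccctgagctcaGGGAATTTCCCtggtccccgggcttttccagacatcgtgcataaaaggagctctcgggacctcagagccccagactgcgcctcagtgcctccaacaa
Cxcl3, chr5:90785851-90786100, plus strand: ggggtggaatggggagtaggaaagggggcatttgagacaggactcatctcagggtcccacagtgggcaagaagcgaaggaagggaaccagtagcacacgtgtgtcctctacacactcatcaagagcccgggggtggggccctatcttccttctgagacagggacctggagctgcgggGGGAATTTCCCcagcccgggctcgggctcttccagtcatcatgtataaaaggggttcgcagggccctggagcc
Nfkbia, chr12:55492648-55492897, minus strand: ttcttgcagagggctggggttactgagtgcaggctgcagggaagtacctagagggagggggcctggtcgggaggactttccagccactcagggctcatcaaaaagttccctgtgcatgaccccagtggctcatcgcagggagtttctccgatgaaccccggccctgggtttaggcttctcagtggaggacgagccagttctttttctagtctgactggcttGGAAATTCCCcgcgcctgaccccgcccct

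The 11 capital bases GGGAATTTCCC of Cxcl1, Cxcl2 and Cxcl3 are the same and hold overlapping matches on both strands, starting 71, 97 and 73 bases before the gene start. Nfkbia has 1 match, GGAAATTCCC, 29 to 20 bases before its start. Over 32851 RefSeq promoter windows of this length, 3.9% held a match. Of the 10 called NF-kB list members 8 had a window and 4 of these a match. Of the 14 called chemokine and cytokine genes 9 had a window and 4 a match. Cxcl1 and Il6 stand in both counts of matches. A gene counted if any of its windows matched, which for Tnfaip3 was 1 of 2, while the 3.9% is a share of windows. A match describes the letters and does not show binding, and windows without one say nothing about the factor.

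Genes known as NF-kB targets and feedback inhibitors were called in 1 direction. Of 14 tested, 10 were called higher and 0 lower, and of the 13 with at least 1 FPKM in NC 9 were higher, beside 3.05% of all such genes. The list shares Ccl2, Cxcl1 and Il6 with the chemokine list. Nfkbia, which encodes the inhibitor IkBa, went from 55.8, 47.7 and 48.4 to 150, 156 and 177 FPKM (log2 1.58 ± 0.11). Tnfaip3 (A20), a feedback inhibitor, went from 19.3, 17.3 and 20.6 to 63.0, 62.6 and 60.6 FPKM (log2 1.62 ± 0.10). Birc3, an inhibitor of apoptosis, went from 2.57, 2.54 and 3.16 to 14.5, 14.9 and 14.3 FPKM (log2 2.28 ± 0.14). No library of either group overlapped with the other for these genes, as in 738 of the 742 called genes of at least 1 FPKM in NC. The 4 members not called were the subunit genes Nfkb1, Nfkb2 and Relb and the regulator Nfkbiz, whose log2 values were 0.96, 0.31, 0.60 and 0.58. The median of the list was 1.36, beside 0.02 over all tested genes.

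**Figure D2:**
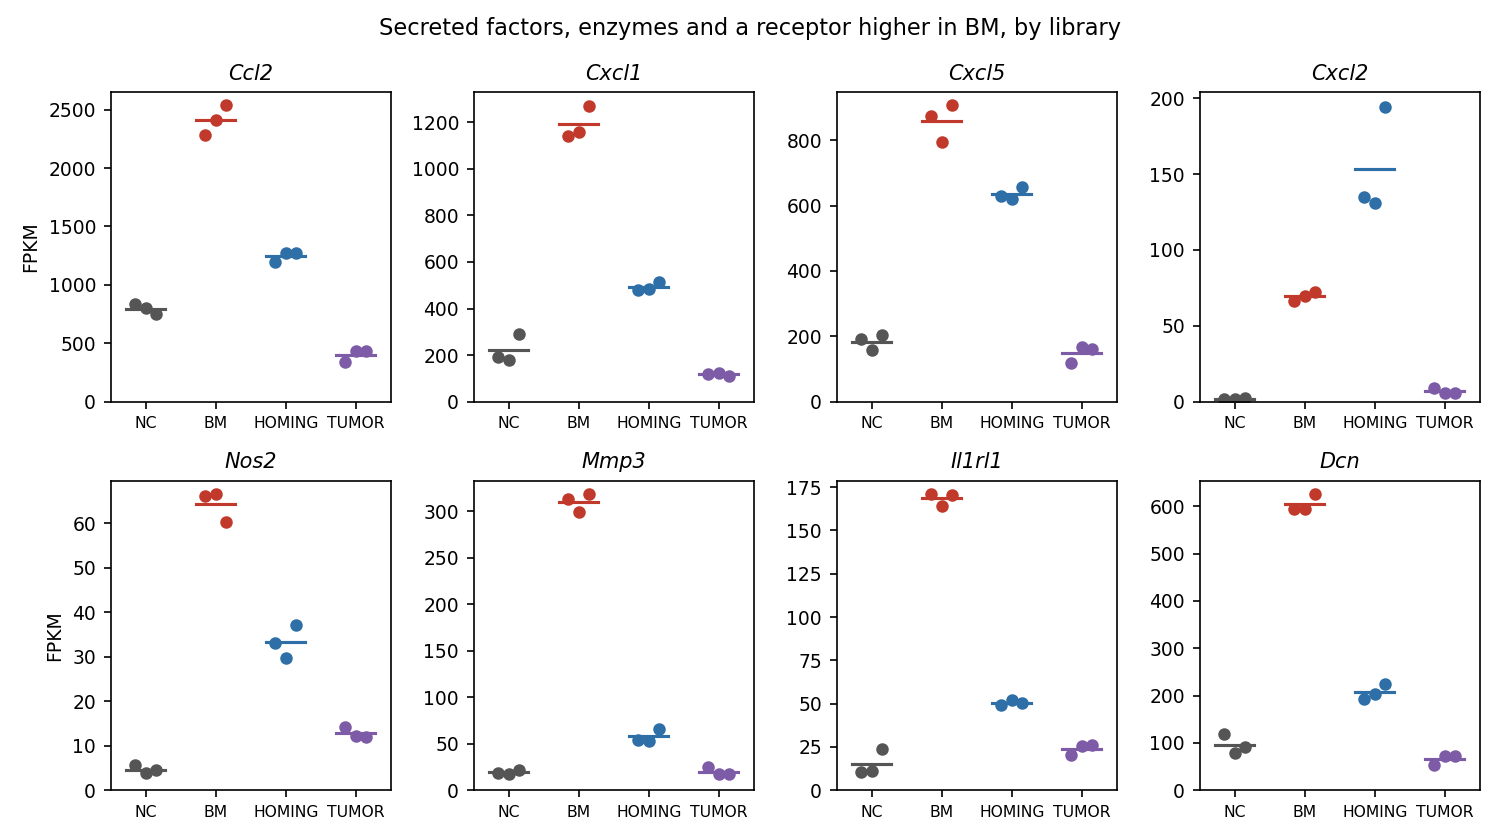
FPKM of 8 genes in each of the 12 libraries (points) with group means (lines), on linear axes from 0. In every panel the 3 BM libraries lie above the 3 NC libraries, and in the Cxcl2 panel, at 66.6 to 72.3 FPKM, they lie below HOMING.

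Of 12 tested enzymes and mediators that restrain immune cells, 7 were higher and 0 lower (4 of 9 among genes of at least 1 FPKM in NC, beside 3.05% of all such genes), with a list median of 1.34. The median of those 9 was 0.65. The 3 under 1 FPKM in NC were all higher, beside 51.1% of all such genes. Nos2 (Entrez 18126), the inducible nitric oxide synthase, went from 5.6, 3.76 and 4.55 FPKM to 66.1, 66.5 and 60.4 (log2 3.71 ± 0.13), with 33.3 ± 3.75 in HOMING and 12.8 ± 1.15 in TUMOR. Ptges, the terminal synthase of prostaglandin E2, went from 4.69, 4.19 and 5.66 to 47.1, 47.6 and 46.4 FPKM (log2 3.10 ± 0.15). Tnfaip6, whose product TSG-6 binds hyaluronan, went from 8.56, 6.77 and 7.55 to 26.4, 25.0 and 29.6 FPKM and was also called higher than in HOMING and in TUMOR. Arg1, an arginine-degrading enzyme of myeloid cells, was far lower in level, with 2 counts in NC and 307 in BM, a ratio of 157 (exact 95% interval 43 to 1299, counting error alone). Hmox1, Lgals1, Lgals9, Tgfb1 and Tgfb2 were not called, and Hmox1 had a log2 value of 0.00.

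Receptors and acute-phase genes stood among the other large or abundant rises. Il1rl1 (Entrez 17082), the receptor of interleukin-33 that exists as a membrane form and a shorter secreted form, went from 10.3, 11.3 and 24.0 to 171, 164 and 170.3 FPKM (log2 3.38 ± 0.26). Its transcript of 3071 bases made up 87.3 to 88.3% of its FPKM in BM and 85.3 to 88.3% in NC, ranges that overlap. Saa3, an acute-phase apolipoprotein, went from 346, 175 and 167 to 901, 943 and 1023 FPKM, with 254 ± 35.1 in HOMING and 24.0 ± 0.24 in TUMOR. Ier3, an early stress-response gene, went from 373, 304 and 397 to 1054, 1083 and 1068 FPKM. Slfn2, a regulator of lymphoid and myeloid quiescence, and the paralogous inhibitory receptor genes Lilr4b and Lilrb4a rose by log2 4.24, 4.31 and 3.62. Reads of the last pair are hard to assign between them. All 3 were at 51.2 to 107 FPKM in HOMING and at 0.813 to 1.11 in TUMOR.

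Several matrix-degrading enzymes rose and 2 of their inhibitors fell. Of 19 tested members of the protease list, 8 were higher and 2 lower, with a median of 0.40. Of the 16 with at least 1 FPKM in NC, 5 were higher and 2 lower, beside 3.05% and 3.66% of all such genes. Their median was -0.01. The 3 under 1 FPKM in NC were all higher, beside 51.1% of all such genes. Mmp3 (stromelysin, Entrez 17392) went from 18.6, 16.9 and 21.9 to 313, 299 and 318 FPKM (log2 3.94 ± 0.16), and it was called higher than in HOMING (57.7 ± 7.41) and TUMOR (19.96 ± 4.65). Mmp10, a related stromelysin, went from 0.68, 0.67 and 1.88 to 11.3, 11.7 and 12.4 FPKM (log2 3.36 ± 0.31, and 4.05 without NC replicate 3). The inhibitor Timp3 fell from 128, 129 and 165 to 47.0, 46.1 and 45.8 FPKM (log2 -1.68 ± 0.11). Timp2 fell from 311, 327 and 364 to 172, 172 and 165 FPKM (log2 -1.06 ± 0.08), a call that misses the 2-fold minimum with scaling by library size (log2 -0.98) and without NC replicate 3 (-0.98). Timp1 was not called, at 316 and 281 FPKM.

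Genes of cholesterol synthesis and uptake rose or were not called. They are driven by SREBP2, which is released when cell sterol is low. Of 17 tested, 9 were higher and 0 lower, and the median log2 change was 1.01. Of the 16 with at least 1 FPKM in NC 8 were higher, beside 3.05% of all such genes. Srebf2, which encodes SREBP2, went from 15.3, 13.9 and 13.7 to 54.4, 56.5 and 53 FPKM (log2 1.85 ± 0.05). Fdps, the farnesyl diphosphate synthase, went from 10.6, 9.44 and 8.37 to 52.8, 54.3 and 56.1 FPKM (log2 2.44 ± 0.07). Idi1, the isopentenyl diphosphate isomerase, went from 1.35, 1.11 and 0.98 to 8.90, 7.19 and 8.80 FPKM (log2 2.77 ± 0.13). BM means were the highest of all 4 groups for these 3 genes, and Fdps was called higher than in HOMING (log2 1.09) and TUMOR (1.03). The calls of Sqle and Hmgcs1, at log2 1.01 each, fall under 2-fold without BM replicate 1 for Sqle (0.96) and without NC replicate 3 for Hmgcs1 (0.95), among others, and that of Hmgcs1 also on its most abundant transcript (0.74).

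Dcn and Col5a3 were matrix genes that rose. Dcn (decorin, Entrez 13179), a proteoglycan that binds collagen and TGF-beta, went from 119, 78.7 and 90.7 to 595, 594 and 626 FPKM (log2 2.57 ± 0.14), well above HOMING (207 ± 16.5) and TUMOR (65.7 ± 11.5). Col5a3, a chain of type V collagen, went from 1.62, 1.22 and 1.61 to 16.6, 16.6 and 16.5 FPKM (log2 3.40 ± 0.10). The chemokine Ccl8 also had its highest mean in BM, at 14.7 ± 1.92 FPKM beside 1.19 ± 0.48 in NC, 5.76 ± 0.98 in HOMING and 2.53 ± 0.74 in TUMOR.

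Of 9 tested contractile genes, 5 were lower and 0 higher, against 3.66% of all genes of at least 1 FPKM in NC, with a list median of log2 -1.04. Acta2, the smooth muscle actin, was at 231, 357 and 435 FPKM in NC and 123, 124 and 114 in BM (log2 -1.59 ± 0.20). Myl9 (Entrez 98932), a myosin light chain, was at 28.2, 38.0 and 49.7 in NC and 7.56, 8.15 and 8.32 in BM (log2 -2.35 ± 0.22). Tagln (transgelin) was at 11.9, 18.7 and 27.3 in NC and 6.48, 6.42 and 6.13 in BM (log2 -1.69 ± 0.25). In all 3 genes NC replicate 1 was the lowest and NC replicate 3 the highest of a wide NC range. No BM library overlapped with that range, which the naming rule required of Myl9. The same held for 738 of the 742 called genes of at least 1 FPKM in NC. Tpm2, a tropomyosin, fell from a mean of 146 to 72.3 FPKM (log2 -1.04 ± 0.12), and this call is lost with scaling by library size (-0.95) and without NC replicate 3 (-0.87). Cnn1 (calponin) was the other fall (log2 -1.65 ± 0.32), while Tpm1, Cald1, Cnn2 and Smtn were not called.

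The promoter of Myl9 is shown because it holds the CArG box, the site of serum response factor, a main activator of contractile genes; capitals mark the match.
Myl9, chr2:156775214-156775463, plus strand: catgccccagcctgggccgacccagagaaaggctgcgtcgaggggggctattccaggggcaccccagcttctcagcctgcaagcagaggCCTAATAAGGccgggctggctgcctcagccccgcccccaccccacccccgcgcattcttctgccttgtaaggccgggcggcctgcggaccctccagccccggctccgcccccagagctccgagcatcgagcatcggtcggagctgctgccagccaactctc
The box lies 161 to 152 bases before the start, matches on both strands, and was found in 1.47% of the 32851 windows. Of the 5 contractile genes that fell, 4 had a window and 1 held the box.

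Of 14 tested matrix glycoproteins and proteoglycans 5 were lower and 1, Dcn, was higher, beside 3.66% and 3.05% of all genes of at least 1 FPKM in NC, with a median of -0.63. Fn1 (fibronectin, Entrez 14268) fell from 572, 582 and 564 to 248, 248 and 217 FPKM (log2 -1.35 ± 0.08). Sparc, a collagen-binding protein of bone and matrix, fell from 304, 338 and 389 to 153, 152 and 147 FPKM (log2 -1.27 ± 0.10). Fbln5, an elastic fibre protein, fell from a mean of 11.9 to 4.56 FPKM (log2 -1.46 ± 0.08). The remaining falls were Thbs2 and Tnc. Of 13 tested collagens of the fibrillar and basement membrane list, which leaves out Col5a3, Col5a2 (log2 -1.49 ± 0.08) and Col4a2 (-1.18 ± 0.08) were lower and Col18a1 (1.05 ± 0.13, and 0.97 without NC replicate 1) was higher. The other 10, type I collagen among them, were not called.

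**Figure D3:**
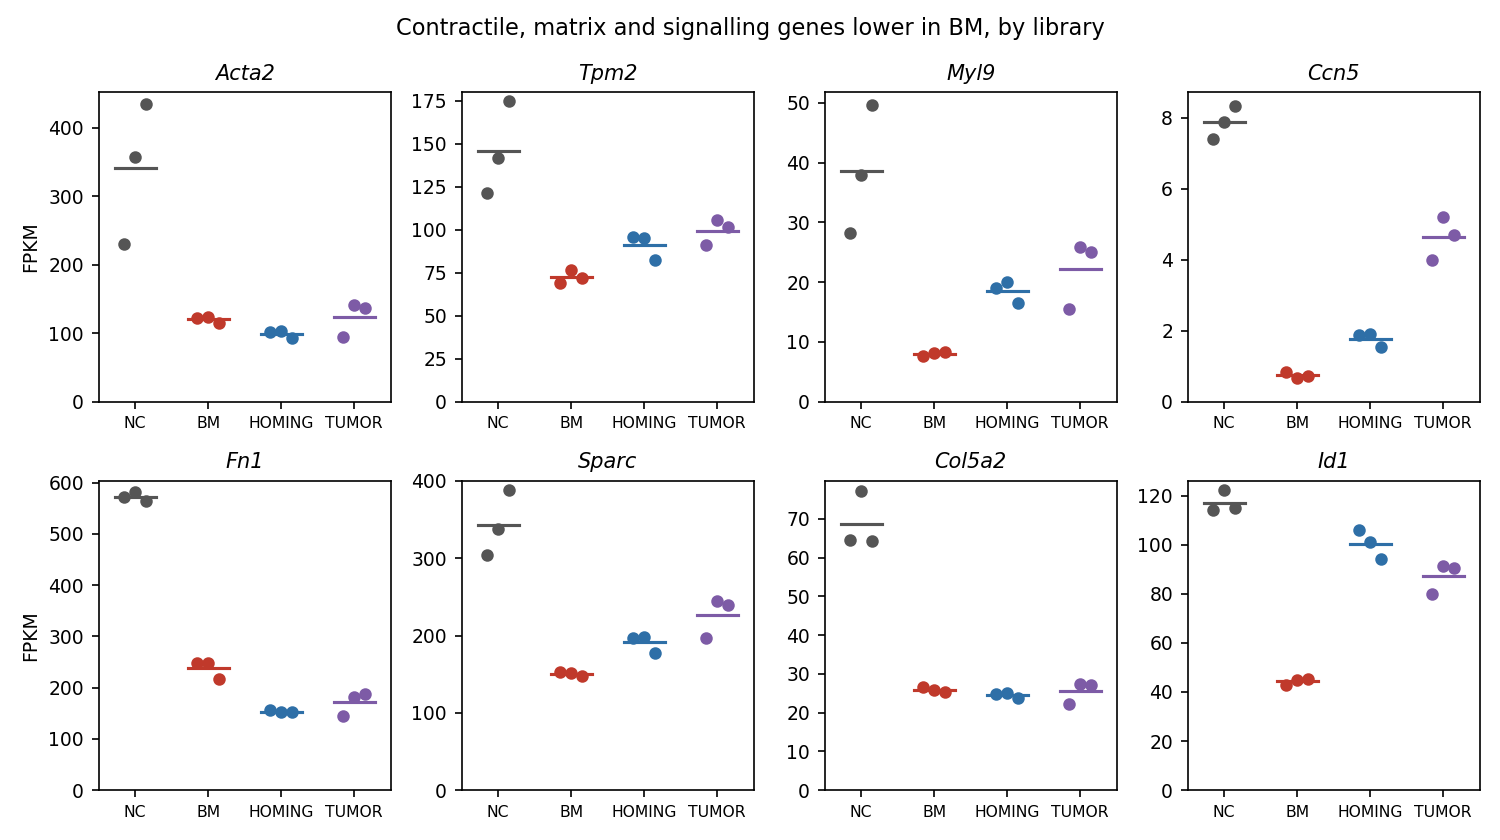
FPKM of 8 genes in each of the 12 libraries (points) with group means (lines), on linear axes from 0. In every panel the 3 BM libraries lie below the 3 NC libraries. NC libraries of Acta2 are spread from 231 to 435 FPKM, while those of BM lie at 114 to 124.

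Of 19 tested genes of the TGF-beta, activin and BMP list, 2 were higher and 4 lower, with a median of -0.29. All 19 had at least 1 FPKM in NC, where 3.05% of all genes were higher and 3.66% lower. Id1, a direct target of BMP signalling, fell from 114, 122 and 115 to 42.8, 44.8 and 45.4 FPKM (log2 -1.48 ± 0.06), and was also called lower than in HOMING (log2 -1.15). The ligand gene Bmp4 fell from a mean of 4.09 to 1.55 FPKM. Ltbp1, which stores latent TGF-beta in the matrix, fell from 58.8 to 22.6 FPKM (log2 -1.50 ± 0.16), a call not kept when the most abundant transcript stands for the gene (-0.998).

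Of 14 tested genes of the Wnt list, 4 were lower and 1 higher, with a median of -0.34. Of the 11 with at least 1 FPKM in NC 3 were lower and 0 higher, beside 3.66% and 3.05% of all such genes. Ccn5, a matricellular protein induced by Wnt1, fell from 7.39, 7.89 and 8.34 to 0.84, 0.66 and 0.73 FPKM (log2 -3.48 ± 0.14) and was lower than in HOMING (1.77 ± 0.21) and TUMOR (4.63 ± 0.61). The transcription factor Tcf7 fell by log2 1.06 and the feedback gene Axin2 by 1.13. The first of these calls is lost with scaling by library size (-0.98) and the second without NC replicate 3 (-0.85). The ligand Wnt7b was higher, at 0.14, 0.19 and 0.31 FPKM in NC and 1.01, 1.05 and 0.91 in BM. The last fall was Wnt4, whose log2 value was -0.53 without NC replicate 3.

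The largest single falls under the naming rule came from genes of varied function. Akr1b7, an aldo-keto reductase, fell from 7.06, 6.33 and 4.18 to 0.30 FPKM in each BM library (log2 -4.34 ± 0.22). Pla2g2e, a secreted phospholipase A2, fell from 11.1, 11.9 and 8.31 to 1.18, 1.15 and 1.08 (log2 -3.26 ± 0.17). Tinagl1, a matricellular basement membrane protein, fell from 34.8, 30.2 and 35.0 to 6.42, 6.06 and 6.10 (log2 -2.51 ± 0.08), and stood at 38.3 ± 0.70 in TUMOR. The remaining large falls were Prr32, the LIM-domain gene Fhl1, the teneurin Tenm4, the neural cell adhesion gene Nrcam, Gask1b, the ATP-gated channel P2rx3 and the transcriptional coregulator Mn1, with log2 values from -4.01 to -2.38. Of these 10 genes, Tinagl1 was called lower and P2rx3 higher than in HOMING, and the other 8 were not called in that comparison.

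Abundant transcripts that fell included stress and redox genes. Bc1, a noncoding RNA made by RNA polymerase III, fell from 1119, 1280 and 1057 to 365, 432 and 550.2 FPKM (log2 -1.42 ± 0.23). Nupr1, a stress-induced chromatin protein, fell from 520.2, 507 and 422 to 215, 217 and 229.5 FPKM (log2 -1.21 ± 0.08), yet was higher in BM than in HOMING (59.2 ± 5.22) and TUMOR (91.7 ± 4.32). Ptx3, a soluble pattern-recognition protein of the pentraxin family, fell from 775, 698 and 556 to 337, 332 and 359 FPKM (log2 -1.06 ± 0.11). Gpx4, the peroxidase that detoxifies lipid peroxides, fell from 815, 745 and 640 to 356, 390.2 and 388 FPKM (log2 -1.03 ± 0.07). Both calls lie near the 2-fold minimum: without NC replicate 1 the log2 values of Ptx3 and Gpx4 were -0.96 each, and without BM replicate 1 that of Gpx4 was -0.99. Scaling by library size gave -0.98 and -0.95, and both were under 2-fold with limma.

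Of 14 tested stromal identity genes 3 were higher and 1 lower. Of the 12 with at least 1 FPKM in NC 3 were called, a larger share than the 6.71% of all such genes. Of the 2 under 1 FPKM in NC 1, Eng, was higher, near the 51.1% of all such genes. Mcam (CD146) fell from 12.2, 14.2 and 11.1 to 3.01, 2.69 and 2.88 FPKM (log2 -2.20 ± 0.12). The platelet-derived growth factor receptor Pdgfra (log2 1.10 ± 0.10), the TGF-beta co-receptor Eng (2.23 ± 0.23) and the adhesion molecule Vcam1 (1.14 ± 0.16) rose. The call of Pdgfra is lost without NC replicate 2 (0.98) and that of Vcam1 without NC replicate 1 (0.98). Of 19 respiratory chain, 20 unfolded protein response, 13 housekeeping and 5 Notch genes 0 were called by edgeR, DESeq2 or limma. Their changes were smaller but not absent: 13, 16, 8 and 4 of them had an unadjusted p under 0.05 by edgeR. Such counts are common, as 8198 of all 12314 tested genes had an adjusted p under 0.05 by edgeR. The 13 respiratory chain genes were all lower. Of the 24 cell cycle genes the kinase Aurkb alone was higher, from 13.8, 13.2 and 14.0 to 48.1, 45.2 and 45.6 FPKM (log2 1.68 ± 0.06). Of the 18 hypoxia and glycolysis genes the oxygen sensor Egln3 alone was higher, from 1.77 to 7.76 FPKM. All 24 of the former and 17 of the latter had at least 1 FPKM in NC. Of all such genes 3.05% were higher, so these counts say nothing particular about the lists. Hspa5, a chaperone of the endoplasmic reticulum, had 674, 731 and 764 FPKM in NC and 443, 430.1 and 447 in BM (log2 -0.80 ± 0.05, adjusted p 7.41e-08 by edgeR).

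Interferon-stimulated genes were divided. Of 22 tested, 7 were higher and 6 lower, with a median of 0.47. Of the 12 with at least 1 FPKM in NC 3 were higher and 4 lower, beside 3.05% and 3.66% of all such genes. Of the 10 under 1 FPKM 4 were higher and 2 lower, beside 51.1% and 2.71%. The GTPase gene Gbp2 went from 4.55, 3.32 and 2.93 to 20.2, 18.8 and 18.7 FPKM (log2 2.34 ± 0.15) and Ifit2 from 6.39 to 14.5 (log2 1.10 ± 0.08). Oasl1, a sensor-like antiviral protein, fell from 6.68, 8.37 and 8.84 to 2.73, 2.52 and 2.54 FPKM (log2 -1.70 ± 0.15). In HOMING Gbp2, Ifit2 and Oasl1 stood at 26.2, 16.6 and 21.6 FPKM. Oasl1 was called lower in BM than in HOMING (log2 -3.02), and Gbp2 and Ifit2 were not called in that comparison.

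**Figure D4:**
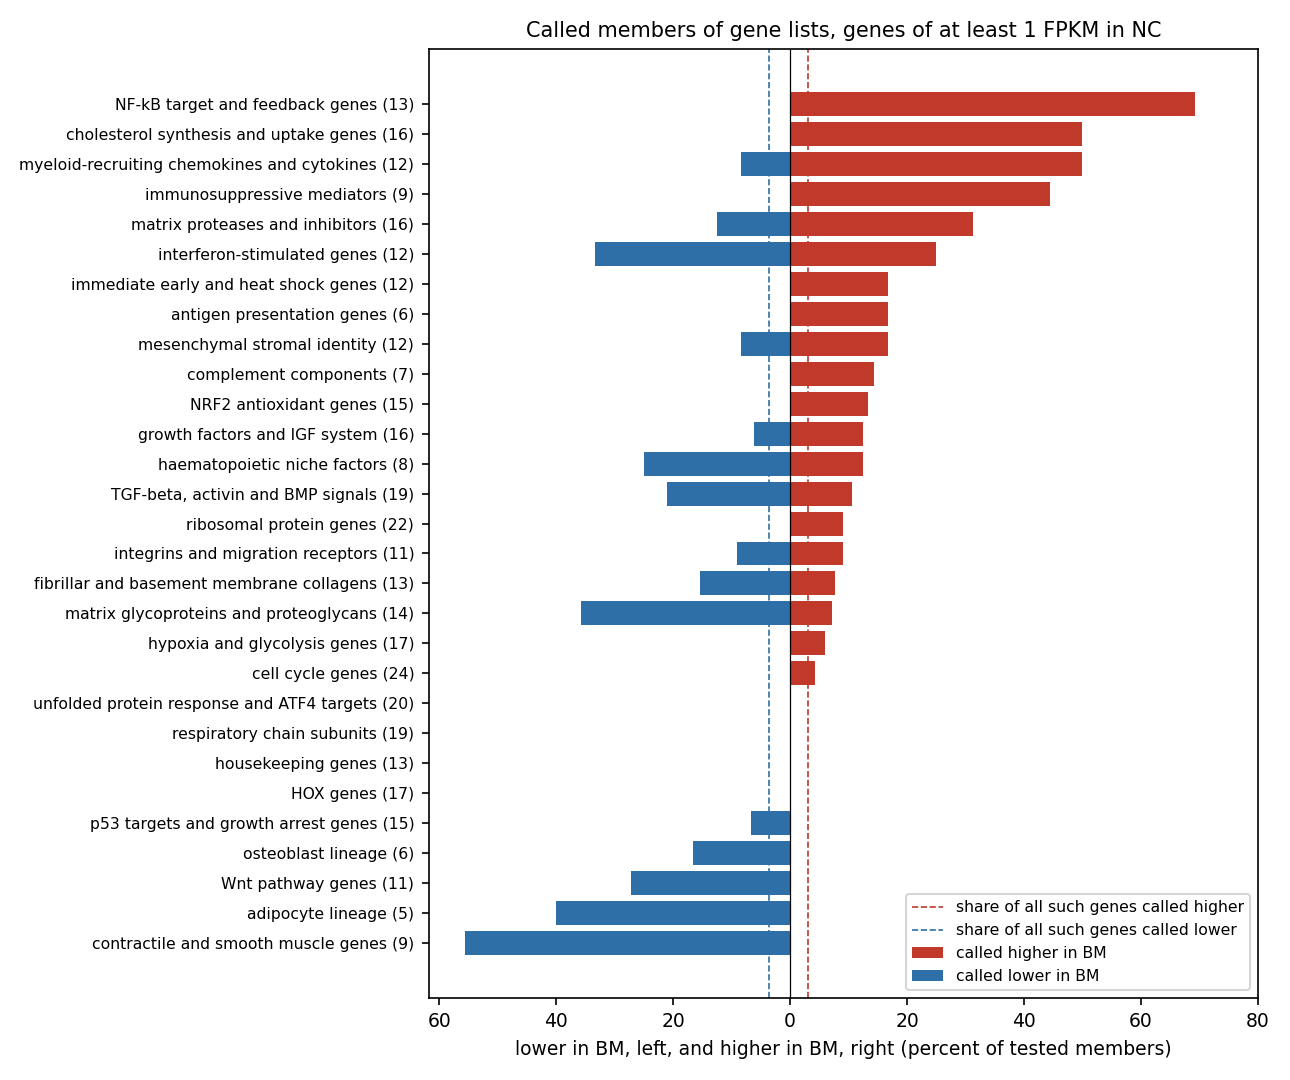
Percent of the tested members of each gene list called higher (right) or lower (left) in BM, for genes of at least 1 FPKM in NC and lists with at least 5 such members, whose number is in brackets. Dashed lines are the shares over all 11061 such genes, 3.05% higher and 3.66% lower. NF-kB targets (9 of 13) lie farthest to the right and contractile genes (5 of 9) farthest to the left.

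Some ribosomal protein and nuclear transport genes had an unusual pattern. Rpl3 (Entrez 27367) was at 2.43, 2.19 and 1.40 FPKM in NC and 76.7, 76.4 and 82.1 in BM (log2 4.79 ± 0.28), and Rpl29 at 16.9, 16.4 and 17.0 in NC and 234, 253 and 248 in BM (log2 3.76 ± 0.21). The importin gene Kpna2 was at 1.5 ± 0.13 in NC and 17.9 ± 0.35 in BM. All 3 were highest in TUMOR, at 239 ± 88.8, 898 ± 322 and 62.0 ± 22.6 FPKM, and were called lower in BM than there. In HOMING they stood at 31.3 ± 7.59, 98.1 ± 10.8 and 9.99 ± 1.76 FPKM. Rpl3 and Rpl29 were called higher in BM than in HOMING, and Kpna2 was not called (log2 0.87). Of Rpl3, the transcript of 1361 bases was at 0.81 FPKM in NC and 76.0 in BM, while one of 2122 bases was at 1.20 and 2.36. Of a list of 22 ribosomal protein genes, which does not hold Rpl29, nor Rpl21 (log2 3.16) and Rpl26 (log2 3.34), which were also called higher, Rpl3 and Rps18 were called, both higher (Rps18 log2 1.06, and 0.98 without NC replicate 2), and the list median was -0.18. Genes of this kind have many processed copies in the genome, so their counts are uncertain.

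Genes under 1 FPKM in culture were described by the group in which their mean was highest. Of the 640 rises, the highest mean was in HOMING for 365, in TUMOR for 183 and in BM for 92. In the direct tests 357 of the 640 were called lower and 142 higher in BM than in HOMING (6.68% and 3.71% of all tested genes), and 178 were lower and 316 higher than in TUMOR (6.95% and 7.28%). The 640 genes entered the test only through groups where they are high, so such calls had to be frequent. Of the 12314 tested genes 11061 had at least 1 FPKM in NC, so the shares are of unlike genes and the counts are a description. For the 337 rises of genes expressed in culture the highest mean was in BM for 192, in TUMOR for 90 and in HOMING for 55. The 405 falls had their lowest mean in BM for 262, in HOMING for 92 and in TUMOR for 51. Comparisons of BM with each group share the BM libraries, so these counts are not independent of each other.

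Blood cell markers formed one part of the genes that rose from near 0. Of 15 tested markers of neutrophils and their precursors 12 were higher in BM and 0 lower, with a median of 5.11 (4.35 with genes at 0 in NC set to their bound). Of these 15, 13 were under 1 FPKM in NC and 11 of the 13 were higher, beside 51.1% of all such genes, which entered the test only through groups where they are high. S100a9 (Entrez 20202), a subunit of calprotectin, was at 0, 0.05 and 0.28 FPKM in NC and 19, 18.4 and 21.9 in BM, and at 800.4 ± 161 in HOMING. Its fitted log2 change of 7.33 ± 0.45 was 9.32 without NC replicate 3. Its partner S100a8 was at 0.76, 0.35 and 0.62 in NC and 19.3, 19.9 and 24.8 in BM. Mmp8, the neutrophil collagenase, had 3 counts in NC and 799 in BM, a ratio of 272 (exact 95% interval 92.7 to 1321), and the granule gene Ngp went from 0.02, 0.04 and 0.14 to 5, 4.54 and 4.24 FPKM (log2 5.99, and 7.09 without NC replicate 3). The summed level of 15 such markers, leaving out Lcn2, which stood at 385 FPKM in NC and 370 in BM, was 56.6 to 64.8 FPKM in BM, 1.56 to 2.88 in NC, 1799 to 2654 in HOMING and 2.25 to 4.58 in TUMOR. The precursor genes Elane, Mpo and Ctsg had 0 counts in NC and 0.24 to 0.50 FPKM in BM.

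Macrophage markers had the same order of groups. Of 10 tested, 9 were higher in BM and 0 lower, with a median of 3.55. The 8 under 1 FPKM in NC were all higher, beside 51.1% of all such genes. Such genes entered the test only through groups where they are high. Of the 2 with at least 1 FPKM in NC 1 was higher. The integrin Itgam (CD11b) was at 0, 0.01 and 0.02 FPKM in NC and 2.43, 2.33 and 2.36 in BM (log2 7.59, and 8.73 without NC replicate 3), the adaptor Tyrobp at 0.04, 0.09 and 0.09 and 4.18, 3.31 and 3.88, and Laptm5, a lysosomal protein of blood cells, at a mean of 0.07 and 2.13. The summed level of all 14 markers was 68.9 to 70.6 FPKM in BM, 13.9 to 20.2 in NC, 374 to 589 in HOMING and 25.9 to 26.6 in TUMOR. The monocyte antigen gene Ly6c2 went from 0.84, 0.21 and 0.69 to 7.43, 8.23 and 8.23 FPKM. Fcer1g, a signalling chain of receptors on myeloid cells, had 3 counts in NC and a BM level of 9.69, 10.1 and 9.74 FPKM, a count ratio of 275 (exact 95% interval 93.7 to 1336), and stood at 211 ± 56.4 in HOMING.

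Markers of other blood lineages were at lower levels. Of 4 tested pan-leukocyte and B cell genes Ptprc, Coro1a and Cd52 were higher. These 3 and the called globin and platelet genes below were under 1 FPKM in NC, where 51.1% of all tested genes were higher. Ptprc reached 0.31, 0.30 and 0.30 FPKM in BM, a count ratio of 108 (exact 95% interval 29.6 to 899) over NC. Cd52 had no NC count and was at least 45.9-fold higher in BM, where the floor is 3 counts over the 3 libraries. The B cell genes Ms4a1 and Igll1 had 0 counts in both groups, and 7 markers of that lineage summed to 0.19 to 0.32 FPKM in BM. T and NK cell markers summed to 0.37 to 0.41 in BM and 0.66 to 0.85 in NC, and none reached the expression filter. Of 7 tested erythroid markers, all under 1 FPKM in NC, 3 were called higher, a share below the 51.1% of all such genes. These 3, all globins, were at 0.65 to 1.13 FPKM in BM, beside 247 to 1249.9 in HOMING. Hbb-bs changed by log2 3.69 (4.62 without NC replicate 3). Hba-a2 and Hba-a1 are near-identical copies whose values are uncertain. The call of Hba-a2 (log2 3.06, and 6.94 without NC replicate 3) is lost without NC replicate 1 or 2, and that of Hba-a1 (1.92) without any NC replicate and without BM replicate 2 or 3. Of 5 platelet markers Pf4, Ppbp and Gp9 were higher, with Pf4 at 0, 0 and 0.04 FPKM in NC and 2.02, 1.85 and 2.35 in BM. Gp9 rests on 1 count in NC and 8 in BM (ratio 8.16, exact 95% interval 1.09 to 362), and its call is lost without BM replicate 1 or 3 or NC replicate 2 or 3.

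Several inflammatory genes moved with these markers. Il1b (Entrez 16176), the pyrogenic cytokine, was at 0.10, 0.09 and 0.05 FPKM in NC and 11.6, 12 and 12.1 in BM (log2 7.10 ± 0.33), and at 87.4 ± 24.5 in HOMING and 0.03 ± 0.03 in TUMOR. Ccl3, a chemokine of macrophages, was at 0.33, 0.12 and 0.27 in NC and 31.0, 32.4 and 32.1 in BM (log2 6.95 ± 0.33), and at 271 ± 76.6 in HOMING. Cxcl3 was at 0.25, 0.19 and 0.25 in NC and 21.6, 24.4 and 23.5 in BM (log2 6.55 ± 0.34), and at 104 ± 26.4 in HOMING. All were called lower in BM than in HOMING and higher than in TUMOR, the order shown by neutrophil and macrophage markers. In these 3 genes and in Cxcl2, Lilr4b, Lilrb4a and Slfn2, which also had their highest mean in HOMING, the part played by blood cells was not tested. Mmp12, the macrophage elastase, was at 0.05, 0.04 and 0.03 FPKM in NC and 7.68, 7.2 and 7.37 in BM (log2 7.46 ± 0.30), and at 6.33 ± 2.03 in HOMING.

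Of 14 tested antigen presentation genes 6 were higher and 0 lower. Of the 8 under 1 FPKM in NC 5 were higher, a share near the 51.1% of all such genes, so the count says nothing particular about the list. The class II genes H2-Ab1 and H2-Aa had 0 counts in NC and 92 and 41 in BM, at least 31.3-fold and 13.9-fold higher by the same floor. Psmb8, an immunoproteasome subunit, was at 0.06, 0.02 and 0.02 FPKM in NC and 0.81, 0.87 and 0.87 in BM (log2 4.57, and 5.24 without NC replicate 1). Tap2, a peptide transporter, was the member expressed in culture, with a log2 change of 1.07 ± 0.23 that drops to 0.94 without NC replicate 2 and 0.98 without NC replicate 3. All 4 genes were called lower in BM than in HOMING, as were Itgam, Tyrobp and Laptm5, and the part of blood cells was not tested.

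Of 15 tested members of the integrin and migration receptor list, 5 were higher and 1 lower. The 4 under 1 FPKM in NC were all higher, beside 51.1% of all such genes. Of the 11 with at least 1 FPKM in NC 1 was higher and 1 lower, beside 3.05% and 3.66%. The leukocyte integrin chain Itgb2 was at 1.98, 1.82 and 2.71 FPKM in NC and 9.10, 9.65 and 9.33 in BM (log2 2.04 ± 0.21), and at 50.6 in HOMING. Its partner Itgal had 2 counts in NC and 181 in BM (ratio 92.4, exact 95% interval 25.2 to 768). Itgb3 was at 0.09 and 0.55 FPKM (log2 2.59 ± 0.26). The list median was 0.36, and -0.16 for members of at least 1 FPKM in NC. Itga3, which binds laminin, fell from 47.0, 56.9 and 86.0 to 25.4, 26.3 and 22.8 FPKM (log2 -1.44 ± 0.19).

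Another part of the genes near 0 in culture had its highest level in TUMOR. Rhox5 (Entrez 18617), a homeobox gene of the X-linked reproductive cluster, was at 0.27, 0.08 and 0.05 FPKM in NC and 43, 43.5 and 44.3 in BM, and at 185 ± 71.9 in TUMOR and 4.21 ± 0.39 in HOMING. Its log2 change over NC was 8.20 ± 0.43, and 9.15 without NC replicate 1. All 4 tested members of the cluster, each under 1 FPKM in NC, were higher in BM than in NC, beside 51.1% of all such genes, and the 8 listed members summed to 58.5 to 59.4 FPKM in BM and 0.30 to 0.51 in NC. Rhox2d was at 8.45, 8.06 and 7.40 and Rhox2h at 5.74, 5.23 and 5.37 in BM. Their values are uncertain because the Rhox2 paralogs are nearly alike, and without NC replicate 1 the log2 change of Rhox2h moved from 6.12 to 7.88. All 4 were called higher than in HOMING and lower than in TUMOR.

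Of 22 tested members of a list of HOX genes 5 were higher and 0 lower, and all 5 belong to the Hoxd cluster. They are also the 5 tested members under 1 FPKM in NC, which entered the test only through groups where they are high, so cluster and level in culture cannot be told apart. Hoxd10 was at 0.02, 0 and 0 FPKM in NC and 1.59, 1.32 and 1.64 in BM, a ratio of 186 (exact 95% interval 51 to 1539). Hoxd9 had a ratio of 183 (50.3 to 1518), and Hoxd8 went from 0.03, 0 and 0.02 to 1.22, 1.32 and 1.31 FPKM (log2 6.25 ± 0.46). No read of Hoxd4 or Hoxd3 was counted in NC, and their rises were at least 40.5-fold and 15-fold by the same floor. All 5 were called higher than in HOMING, where their means were 0.02 to 0.18 FPKM, and lower than in TUMOR, where they were 1.52 to 8.28. Hoxc13, which the list leaves out, was lower (log2 -1.001). The 17 members of at least 1 FPKM in NC had 0 calls by edgeR, DESeq2 and limma, with a median log2 change of -0.27. Of them 13 had an unadjusted p under 0.05 by edgeR, 11 of these lower. Among all 11061 genes of at least 1 FPKM in NC, 7334 had an adjusted p under 0.05 by edgeR.

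The keratin gene Krt8 (Entrez 16691), a filament protein of simple epithelia, followed the same order, at 0.15, 0.03 and 0.05 FPKM in NC, 5.96, 6.44 and 6.47 in BM, 1.38 ± 0.25 in HOMING and 64.6 ± 25.3 in TUMOR (log2 over NC 6.27, and 7.23 without NC replicate 1). Of the epithelial list Krt19 was also tested and fell, from 1.76, 2.25 and 4.15 to 0.31, 0.40 and 0.40 FPKM (log2 -2.87 ± 0.29). The epithelial adhesion genes Epcam and Cdh1 stood at 0.003 and 0.03 FPKM in BM. The labels do not give the share of tumour cells in any library. Its part in the Rhox, Hoxd, Krt8, Rpl3, Rpl29 and Kpna2 values was not tested.

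**Figure D5:**
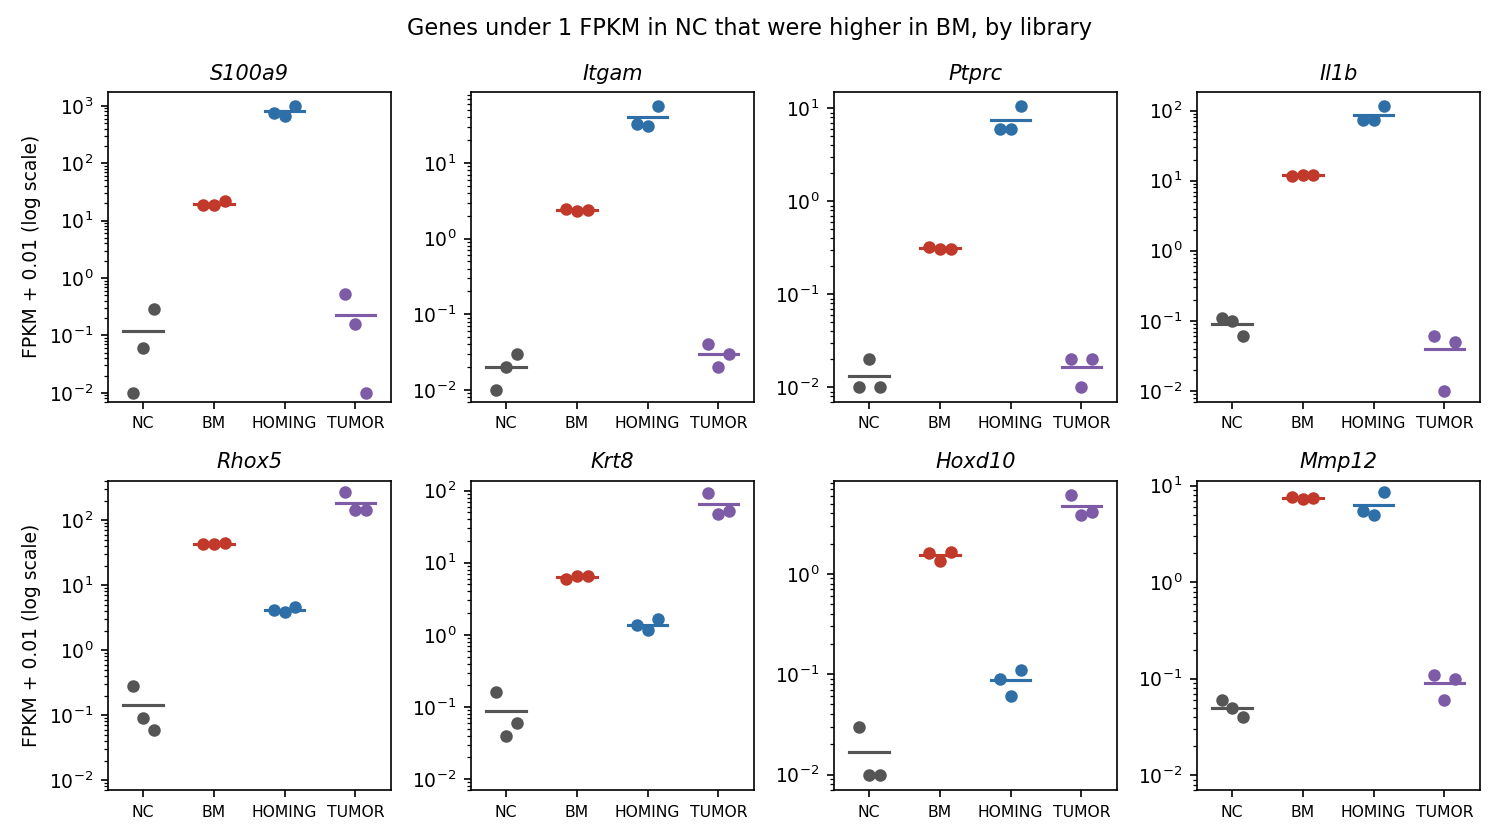
FPKM + 0.01 on log axes for 8 genes under 1 FPKM in NC, in each of the 12 libraries (points) with group means (lines); a value of 0 is drawn at 0.01. In the upper row BM lies between NC and HOMING, and in the Rhox5, Krt8 and Hoxd10 panels it lies between HOMING and TUMOR. Mmp12 has its highest mean in BM, at 7.42 FPKM, with HOMING libraries on both sides of it.

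Direct tests of BM against the other groups were made for the 46 genes named by the rule on size and level. Against HOMING 16 were higher in BM and 10 lower (3.71% and 6.68% over all tested genes). Against TUMOR 22 were higher and 11 lower (7.28% and 6.95%). The 46 genes were picked by the size of their change or their level, partly in BM, so these counts are a description. The adjusted p-values of the 46 genes in BM against NC ran from 7.84e-10 to 0.000128 by edgeR.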

How the data were processed

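RNA was extracted with Trizol from sorted, frozen cells and sequenced from TruSeq libraries, per the labels' protocols. Reads were mapped with Bowtie 0.12.2 to build mm8, per the submitters' processing notes. The name of the counting program was not given in the sources used here, nor was its version. The authors deposited, per transcript, expected counts, which are estimated reads without normalization, and FPKM, scaled by the authors to transcript length and mapped fragments.

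Both were summed per gene, with unlisted transcripts as 0, which gave 21001 genes. Totals over the 12 libraries were 43232145 to 46166519. The 12314 genes that reached 1 FPKM in 3 or more of the 12 libraries were tested on rounded counts in edgeR 4.0.16 (R 4.3.3), with TMM scaling, 1 quasi-likelihood model of 4 groups and Benjamini-Hochberg adjustment over all tested genes. A call needed an adjusted p under 0.05 and at least a 2-fold change. SE is the log2 change divided by the root of F. The test was checked on simulated data. Alternatives used DESeq2 1.42.0, limma 3.58.1, other scalings, filters and splits, and each library left out in turn. Intervals and floors cover counting error only. Promoters came from RefSeq GRCm38.p6, and no coordinates of mm8 were used.

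Genes, gene lists and comparisons were chosen with earlier results of these data known. Named genes are the 12 largest rises and falls of genes of at least 1 FPKM in NC, the 10 largest rises under 1 FPKM (both where the higher group had a mean of 5 FPKM or more and the libraries did not overlap), the 6 most abundant called genes in each direction, and up to 4 called members of a list by adjusted p. Nfkbia, Hmgcs1, Sqle, Timp1, Vim, Lcn2, Cnn1, Tnc, Thbs2, Wnt4, Ccl5, Hoxd3, Hoxc13, Rpl21, Rpl26 and members named as not called or near 0 were chosen after their values were seen.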

Additional observations from a re-analysis of the deposited data

How the results depend on the processing

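Of 1416 genes called in BM against NC, 69.0% were higher. The share was 63.4% with the expression filter on the 6 libraries, 74.6% with scaling by library size, 74.5% and 71.7% with limma at pseudocounts of 0.1 and 1, 61.8% without a filter and 51.7% without a minimum fold change. Calls numbered 625 with limma at a pseudocount of 1 (442 of at least 1 FPKM in NC and 183 under it), 2537 without a filter (1788 under 1 FPKM) and 8198 without a minimum fold change (7334 of at least 1 FPKM). The filter on 6 libraries left 292 calls under 1 FPKM, fewer because fewer such genes enter the test.

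For genes of at least 1 FPKM in NC the share of rises was 54.5% with library size, 56.5% and 59.95% with limma, 50.3% with the boundary at 0.5 FPKM and 58.6% when genes were placed by the mean of the 6 libraries. For genes under the boundary it was 100% with the filter on 6 libraries and with limma at a pseudocount of 1, 97.5% at 0.1, 68.5% without a filter, 92.1% without a minimum fold change, 98.4% and 85.6% with boundaries at 0.5 and 2 FPKM, and 86.4% by the mean of the 6 libraries. The cause was not tested. Leaving out 1 library gave 1373 to 1504 calls and shares of 67.3 to 70.2%. Above the boundary it gave 721 to 833 calls and 43.2 to 49.8%, the latter without NC replicate 3. Below it, it gave 648 to 671 calls and 94.3 to 95.6%.

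Over 736 alternative values of the 46 named genes 727 kept direction and call, and 9, all of Gpx4 and Ptx3, fell short of the call. Of 7403 values of other list members 129 lost and 70 gained a call, and 0 changed direction. Same-numbered BM and NC libraries did not deviate together (r -0.081, 0.0908 and 0.0153), and the replicate block gave 1421 calls, 741 of them of at least 1 FPKM and 680 under it.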

Other observations

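Over all tested genes 7.93% were higher and 3.57% lower in BM. Of 6 tested adipocyte genes 1 was higher and 2 were lower. Plin2, a coat protein of lipid droplets, fell from 114, 102 and 88.2 to 30.1, 29.5 and 29.8 FPKM (log2 -1.85 ± 0.12), and Pparg, the main transcription factor of fat cells, from 1.6, 1.94 and 2.08 to 0.57, 0.63 and 0.64 (log2 -1.66 ± 0.16). Fabp4, a fatty acid carrier, rose from 1.03, 0.73 and 0.76 to 2.73, 3.31 and 3.94 (log2 1.90 ± 0.24). Of 3 tested cartilage genes Sox5 (log2 1.22 ± 0.13) and Acan (1.77 ± 0.35, and 2.60 without NC replicate 3) were higher. Of 6 osteoblast genes Sparc alone was called, and of 8 niche factors Vcam1 was higher and Bmp4 and Ptn were lower (Ptn log2 -1.90, and -1.24 without NC replicate 3).

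Of 18 tested members of the growth factor and IGF list 3 were higher and 1 lower. Of the 16 with at least 1 FPKM in NC 3 were called, a larger share than the 6.71% of all such genes. Igfbp3, which binds insulin-like growth factors, rose from 18.4, 13.8 and 12.2 to 48.0, 47.5 and 49.4 FPKM (log2 1.63 ± 0.11), above 10.9 in HOMING and 7.63 in TUMOR, and was called higher than both. Igfbp6 fell from 174, 165 and 215 to 77.3, 84.9 and 83.8 (log2 -1.25 ± 0.11). Hgf, the hepatocyte growth factor, rose by log2 1.98 ± 0.20, and Areg, a ligand of the EGF receptor, by 1.32 ± 0.38 (2.14 without NC replicate 3). Of 15 NRF2 antioxidant genes Nqo1 (log2 1.20 ± 0.09) and Gsr (1.14 ± 0.09) were higher, beside 3.05% of all genes of at least 1 FPKM in NC. Of 15 p53 and growth arrest genes Cdkn2a alone was lower, from 224, 203 and 216 to 104, 112 and 121 FPKM, and its log2 change of -1.01 ± 0.10 was -0.93 with scaling by library size. Of 9 complement genes Cfb (log2 2.37 ± 0.28) and the receptor C5ar1 were higher, beside 7.93% of all tested genes. C5ar1 went from 2 counts to 203 (ratio 104, exact 95% interval 28.3 to 861). Of 5 imprinted genes Grb10 fell from 57.8, 62.5 and 57.7 to 18.2, 17.7 and 20.7 FPKM (log2 -1.74 ± 0.12), and Snrpn and Peg3 were higher.

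Cdh5, a cadherin of endothelial cells, was at 0.03, 0.08 and 0.24 FPKM in NC and 1.3, 1.29 and 1.47 in BM (log2 3.38, and 4.44 without NC replicate 3), and was called higher than in HOMING (0.447) and TUMOR (0.0833). It was the 1 called gene of 3 tested endothelial markers. Of the 2 under 1 FPKM in NC it was the 1 called higher, near the 51.1% of all such genes. The count therefore says nothing particular about the list. Among 435 tested genes without an Entrez number 45 were higher and 16 lower, beside 7.93% and 3.57% of all tested genes.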
